A study of Homo sapiens with 7 samples.

Results

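Short internal introns are introns of fewer than 1000 bases that are not the first of their transcript. In the deposited table of splice indices, an intron was taken when its number was 2 or more, its length was under 1000 bases and an index was given in all 6 CFAP20-KO and WT libraries. These conditions held for 3009 introns of 1505 genes, out of 6709 introns of 2979 genes in the table. A further 69 introns met the conditions on number and length but lacked a value and were left out. The rule used the length, the number and the presence of values, and not the size of the index.

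The 7 libraries were made from RPE1, an immortalised human retinal pigment epithelial cell line. All carried an inducible Cas9 (iCas9) and were p53/puro-dKO, in knockout and WT cells alike. CFAP20-KO, with 3 libraries, lacks CFAP20, a protein known from cilia. CFAP20-KO + CFAP20-GFP, with 1 library, is the knockout carrying a GFP-tagged CFAP20 and is called the rescue. WT, with 3 libraries, is the same line without the CFAP20 knockout. Bromouridine was given to all cells at 2 mM for 30 min, and the labelled RNA, which is mostly newly made, was captured with an antibody and sequenced as paired 151-base reads (BrU-seq). The labels do not give the number of clones or whether replicates were separate cultures, so a p-value here covers the scatter among libraries alone, and that scatter may be technical. CFAP20 has no intron in the table, so the knockout was not checked in these values. Of 10 markers of retinal pigment epithelial and epithelial lines, 5 genes (KRT8, KRT18, KRT7, VIM and OTX2) were in the table, against 1 of 5 mesenchymal or matrix markers (FN1), 1 of 5 neuronal markers (TUBB3), 0 of 5 haematopoietic and 0 of 4 other epithelial markers. RLBP1, BEST1, RPE65, MITF and CDH2, the remaining markers of the epithelial list, were not in it. Being in the table is not a measure of expression, so these counts do not identify the cell type. The short internal introns of these markers did not all differ in 1 direction. KRT18 intron 3 had a mean index of 0.508 in CFAP20-KO and 0.280 in WT. For KRT7 intron 8 it was 0.473 in CFAP20-KO and 0.396 in WT. KRT8 introns 5, 6 and 8 had 0.931, 0.903 and 0.922 in CFAP20-KO, against 0.920, 0.728 and 0.887 in WT. VIM introns 3 and 8 had 0.833 and 0.836 in CFAP20-KO, against 0.836 and 0.876 in WT.

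Introns are cut out of the growing transcript by the spliceosome, which recognises a 5′ splice site that nearly always begins with GT, a branch point, and a 3′ splice site ending in AG behind a run of pyrimidines. Short introns can be recognised as a unit across the intron, whereas exons that lie between long introns are thought to be recognised across the exon. Much splicing takes place while RNA polymerase II is still transcribing, so RNA labelled in a short pulse holds both spliced and unspliced molecules.

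The index runs from 0 to 1 for each intron and library, while neither its formula nor the number of reads behind it is stated in the sources at hand. Introns are therefore described below by the level of the index, without a statement that they were more or less often removed. The relation of the index to intronic signal was looked at for 156 short internal introns of at least 400 bases lying in the deposited windows around replication origins. These introns were put into groups of 52 by the ratio of coverage inside the intron to coverage of nearby exons. In the group with the lowest ratio (median 0.788) the median index averaged 0.746 in the CFAP20-KO libraries and 0.736 in the WT libraries. In the group with the highest ratio (median 2.79) it averaged 0.729 in CFAP20-KO and 0.728 in WT. Across these introns Spearman's rho between index and ratio ranged from -0.327 to 0.092 over the 6 libraries, so the direction of the index was not established.

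The annotation matched the label of these introns. Of the 3009, 2939 were an intron of the listed transcript in GENCODE 44, and 2915 of them had the same number there. Introns numbered 2 or more include 558 that are the last of their transcript. The median length was 277 bases, from 63 to 999, with quartiles at 124 and 551. In the listed transcripts 2606 (86.6%) lay in the coding region, 76 in the 5′ UTR, 101 in the 3′ UTR and 156 in non-coding transcripts, and 70 were not matched. None overlapped another of the set on the same strand. The median GC content was 51.7%, against 46.7% for internal introns of 1 to 5 kb and 44.9% for those of at least 5 kb.

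The sequences below show the introns on which the results turn, read 5′ to 3′ from hg38 on the strand of the gene, with the 2 bases at each end of the intron in capitals. The first set holds coding-region introns short enough to print whole, with large differences between CFAP20-KO and WT.
SSRP1 intron 6 (chr11:57332487-57332624, minus strand): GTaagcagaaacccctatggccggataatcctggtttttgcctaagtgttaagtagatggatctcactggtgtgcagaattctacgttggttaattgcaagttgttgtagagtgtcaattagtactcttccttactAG
RNF40 intron 7 (chr16:30765328-30765424, plus strand): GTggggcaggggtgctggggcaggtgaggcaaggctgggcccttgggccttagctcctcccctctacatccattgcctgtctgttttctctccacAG
NCAPD2 intron 24 (chr12:6528092-6528172, plus strand): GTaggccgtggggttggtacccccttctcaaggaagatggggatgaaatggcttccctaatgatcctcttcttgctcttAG
ATL3 intron 2 (chr11:63658905-63659037, minus strand): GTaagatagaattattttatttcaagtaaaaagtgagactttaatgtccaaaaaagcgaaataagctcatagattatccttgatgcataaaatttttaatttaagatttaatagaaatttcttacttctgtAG
CDK2 intron 2 (chr12:55967935-55968048, plus strand): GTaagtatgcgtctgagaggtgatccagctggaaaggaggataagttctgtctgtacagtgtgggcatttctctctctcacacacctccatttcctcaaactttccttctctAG

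The next set holds 2 of the shortest introns and 3 whose index was at or near 0 in every library.
PPP2R5D intron 3 (chr6:43010570-43010633, plus strand): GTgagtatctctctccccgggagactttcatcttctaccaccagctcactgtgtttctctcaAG
MRPS34 intron 2 (chr16:1772535-1772603, minus strand): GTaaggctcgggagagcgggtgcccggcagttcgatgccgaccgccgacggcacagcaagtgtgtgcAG
ABHD1 intron 8 (chr2:27130417-27130532, plus strand): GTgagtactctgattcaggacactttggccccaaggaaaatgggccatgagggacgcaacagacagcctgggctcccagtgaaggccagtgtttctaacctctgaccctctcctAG
ACP4 intron 10 (chr19:50794965-50795042, plus strand): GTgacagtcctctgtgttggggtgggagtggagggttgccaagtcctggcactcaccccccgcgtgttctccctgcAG
AP1G2 intron 20 (chr14:23559851-23559937, minus strand): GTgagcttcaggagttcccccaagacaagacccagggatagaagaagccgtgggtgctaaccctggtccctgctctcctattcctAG

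Of the 3009 introns, 2982 began with GT and ended with AG, 21 had GC-AG ends and 2 had AT-AC ends. The other 4 had other ends. AT-AC introns are removed by the minor spliceosome, and the 2 found here were intron 2 of MTG1, which encodes a mitochondrial GTPase, and intron 2 of SPC24, which encodes a kinetochore protein. Their last 20 bases are shown with the end in capitals, next to those of introns with the highest index and with large differences.
MTG1 intron 2, last 20 bases: ttttaccttaattttgccAC
SPC24 intron 2, last 20 bases: tccttaacgacctgccctAC
TERT intron 14, last 20 bases: cagcctctgttttcccccAG
MYH9 intron 17, last 20 bases: gcttctctttccttcctcAG
BRK1 intron 2, last 20 bases: gttttcctttcctttcacAG

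The level of the index differed more between libraries than between the genotypes. The median over the 3009 introns was 0.630, 0.783 and 0.757 in CFAP20-KO replicates 1 to 3, against 0.626, 0.764 and 0.715 in WT replicates 1 to 3. The lowest CFAP20-KO library lay beside the lowest WT library, and both were replicate 1. The groups averaged 0.723 ± 0.0820 in CFAP20-KO and 0.702 ± 0.0695 in WT (SD, n = 3 each), a difference of 0.0216 (two-sided exact permutation p = 0.7, and 0.875 after adjustment over 15 such values). With 3 against 3 libraries this test cannot give less than 0.1. Column names of the table carry a number with 3 values, called the run here, whose meaning is not stated. CFAP20-KO and WT replicate 1 share run A, the rescue and WT replicate 2 share run B, and CFAP20-KO replicates 2 and 3 share run C with WT replicate 3. Within the runs that hold both genotypes, the CFAP20-KO median was above the WT median by 0.00323 in run A and by 0.0553 in run C. The depth behind an index is unknown. The smallest step in the deposited coverage windows is finer in deeper libraries. It was coarsest in CFAP20-KO replicate 1 (0.393) and WT replicate 1 (0.30), the libraries with the lowest medians. The step was 0.16 and 0.18 in CFAP20-KO replicates 2 and 3, 0.187 in WT replicate 3, and finest in WT replicate 2 (0.0733). A relation of depth to the median index was not tested.

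Values were widely spread within each library. The share of short internal introns with an index under 0.5 was 35.5%, 22.5% and 23.1% in the CFAP20-KO libraries, against 37.8%, 20.8% and 28.3% in the WT libraries (difference of means -1.96 percentage points, exact permutation p = 0.7). Taking the mean of the 6 libraries, 1031 introns (34.3%) had an index of at least 0.8 and 190 (6.31%) one under 0.1. Of those 190 introns, 43.2% lay outside the coding region or were not matched, against 11.4% of the others, and 53 were at 0 in all 6 libraries. Pearson's r between libraries over the introns ranged from 0.797, for CFAP20-KO replicate 1 and WT replicate 2, to 0.960, for CFAP20-KO replicates 2 and 3.

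Short internal introns stood well above first introns and close to longer internal ones. First introns had a median index that averaged 0.323 in CFAP20-KO and 0.344 in WT, so short internal introns exceeded them by 0.423, 0.40 and 0.377 in the CFAP20-KO libraries, against 0.379, 0.296 and 0.399 in the WT libraries. The mean difference over libraries was 0.379, positive in 6 of 6 (two-sided exact sign-flip permutation p = 0.031, the smallest that 6 libraries can give, and 0.0677 after adjustment over 13 such values, which misses 0.05). First introns under 1 kb, 845 in number, also lay low, at 0.263 in CFAP20-KO and 0.279 in WT. Internal introns of 1 to 5 kb had medians averaging 0.707 in CFAP20-KO and 0.713 in WT, and those of at least 5 kb 0.702 in CFAP20-KO and 0.735 in WT. Short minus 1 to 5 kb was 0.0236, 0.0163 and 0.00714 in CFAP20-KO, against -0.0303, 0.0319 and -0.0354 in WT, and its mean over 6 libraries was 0.00219 (exact sign-flip permutation p = 0.844). Short minus at least 5 kb averaged -0.00618 over 6 libraries (exact sign-flip permutation p = 0.781).

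Within the same gene a small difference by length was seen. In 539 genes with both kinds, the short internal introns exceeded the longer internal ones by a median of 0.0444, 0.0204 and 0.0258 in the CFAP20-KO libraries, against 0.0212, 0.0321 and 0.00729 in the WT libraries. The mean of 0.0252 was positive in 6 of 6 libraries (exact sign-flip permutation p = 0.031, adjusted 0.0677). Between genotypes, short minus 1 to 5 kb differed by 0.0269 (exact permutation p = 0.4; 0.0539 and 0.0471 within runs A and C), and short minus at least 5 kb by 0.0545 (exact permutation p = 0.4; 0.115 and 0.0736 within runs). Without WT replicate 2 these differences were 0.0485 and 0.0902 (exact permutation p = 0.1 for each, the smallest that 3 against 2 can give), without WT replicate 1 they were 0.0174 and 0.0324, and without WT replicate 3 they were 0.0148 and 0.0410. Short minus first differed by 0.0419 (exact permutation p = 0.4), with opposite signs within runs A and C (0.0440 and -0.0103), and by 0.0111 without WT replicate 2.

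**Figure D1:**
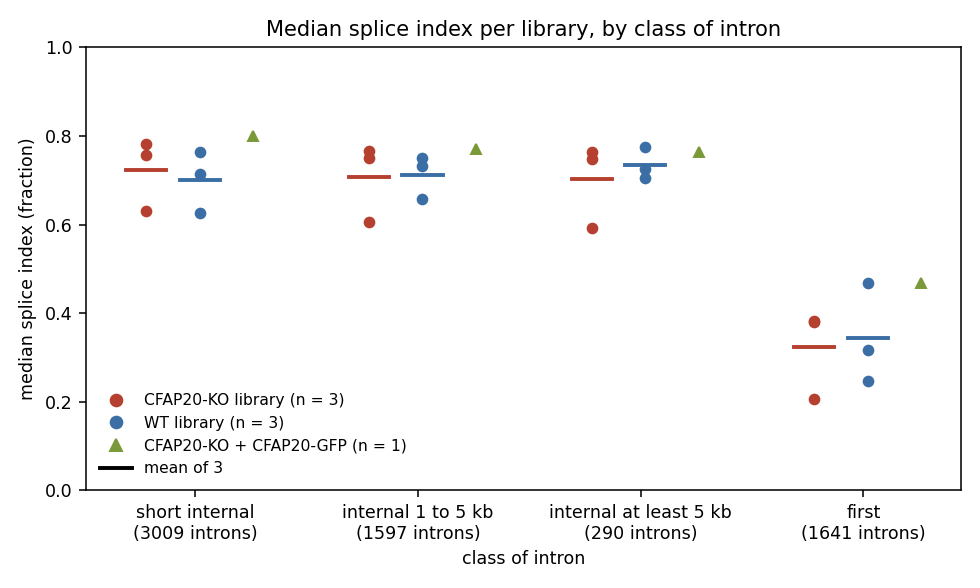
Median splice index (fraction from 0 to 1, vertical axis) of each library for 4 classes of intron; points are libraries, bars are means of the 3 CFAP20-KO or 3 WT libraries, and the triangle is the single rescue library. The 3 classes of internal intron lie between means of 0.702 and 0.735, and first introns lie at 0.323 in CFAP20-KO and 0.344 in WT.

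The index of short internal introns was higher further along the transcript. Introns numbered 2 had a median of 0.557 in CFAP20-KO and 0.558 in WT, those numbered 3 had 0.630 in CFAP20-KO and 0.590 in WT, and those numbered above 10 had 0.840 in CFAP20-KO and 0.816 in WT. Introns numbered 2 lay below later short internal introns by 0.183 on average, lower in 6 of 6 libraries (exact sign-flip permutation p = 0.031, adjusted 0.0677). Spearman's rho between number and index was 0.277 to 0.319 over the 3009 introns of a library. The points share genes, and long transcripts supply most of the high numbers. Within the 191 genes that had at least 4 of the introns, 1120 introns in all, the mean index went up with number in 114 genes and down in 75. The median rho per gene was 0.20 in each CFAP20-KO library, against 0.143, 0.319 and 0.203 in the WT libraries (positive in 6 of 6, exact sign-flip permutation p = 0.031, adjusted 0.0677). Over 710 adjacent pairs pooled from all genes, the mean indices of the neighbours had a rho of 0.82. This rho includes differences between genes, and pairs that were not adjacent were not compared. In the 191 genes the SD of gene means was 0.187 and the median SD within a gene 0.106.

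Last introns departed from this order. The 558 last introns had a median index of 0.50, 0.65 and 0.625 in the CFAP20-KO libraries, against 0.437, 0.674 and 0.562 in the WT libraries, while those followed by another intron averaged 0.746 in CFAP20-KO and 0.724 in WT. The difference of -0.160 was negative in 6 of 6 libraries (exact sign-flip permutation p = 0.031, adjusted 0.0677). Among coding-region introns numbered 6 or more, 211 last introns had 0.679 in CFAP20-KO and 0.658 in WT, and 1024 others had 0.824 in CFAP20-KO and 0.794 in WT. Among coding-region introns numbered 2, 41 last introns had 0.602 in CFAP20-KO and 0.590 in WT, and 359 others had 0.656 in CFAP20-KO and 0.635 in WT.

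Introns outside the coding region had low values. The 76 introns in 5′ UTRs had a median index of 0.20, 0.340 and 0.338 in CFAP20-KO, against 0.253, 0.499 and 0.299 in WT. The 101 introns in 3′ UTRs averaged 0.420 in CFAP20-KO and 0.377 in WT, and the 156 of non-coding transcripts 0.262 in CFAP20-KO and 0.294 in WT. Coding-region introns stood at 0.749 in CFAP20-KO and 0.727 in WT, above the others by 0.404 on average and in 6 of 6 libraries (exact sign-flip permutation p = 0.031, adjusted 0.0677). The comparisons by number, along genes, and of coding and other regions were chosen after their values were seen. None of these position effects differed detectably between the genotypes (exact permutation p of 0.6 to 0.8, adjusted 0.875 or more).

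**Figure D2:**
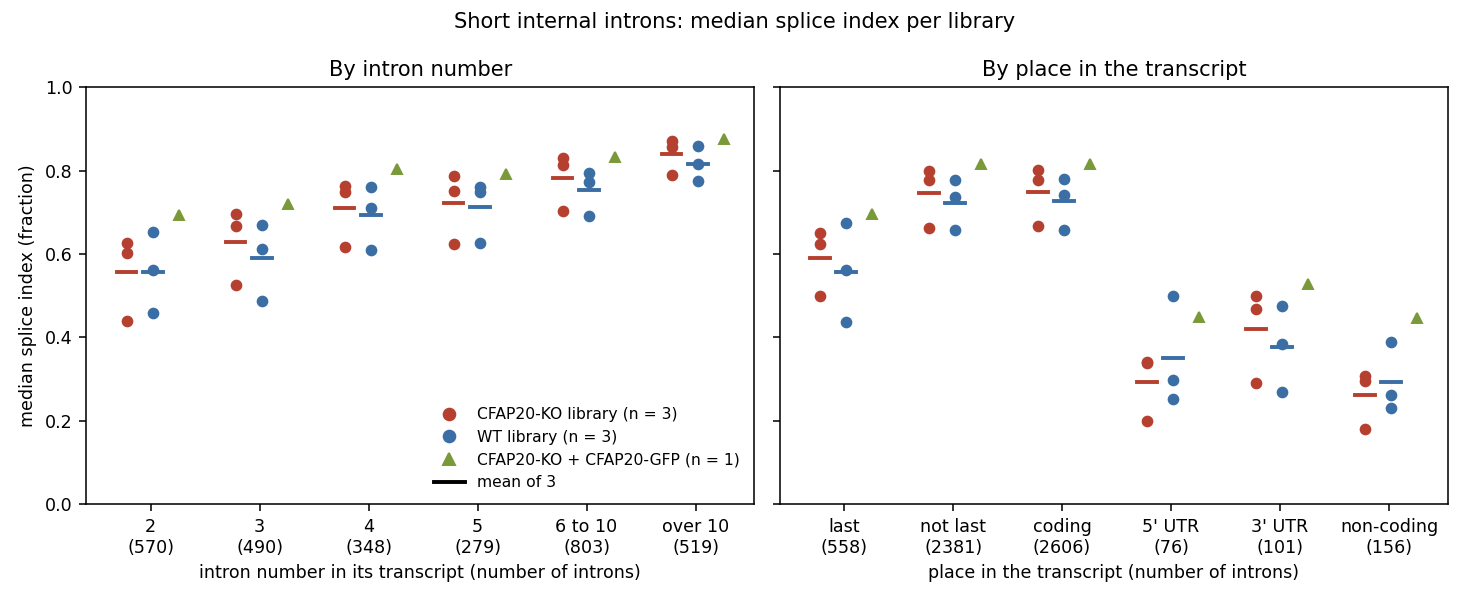
Median splice index (fraction, vertical axis) of short internal introns in each library, by intron number (left) and by place in the transcript (right), with the number of introns under each label; points are libraries, bars are means of 3, and the triangle is the rescue. Values go up from introns numbered 2 to those above 10, and last introns and those outside the coding region lie low in both genotypes.

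The index was next set against length, GC content and splice-site letters among short internal introns. The 1003 introns of 444 to 999 bases had a median index of 0.717 in CFAP20-KO and 0.703 in WT, and the 1007 introns of 63 to 156 bases 0.720 in CFAP20-KO and 0.703 in WT. The longer group minus the shorter one was -0.00132 over 6 libraries (exact sign-flip permutation p = 0.781), and with 1 intron a gene it was 0.0688 (exact sign-flip permutation p = 0.031). The 291 introns under 90 bases lay lower, at 0.545, 0.719 and 0.698 in the CFAP20-KO libraries, against 0.551, 0.724 and 0.654 in the WT libraries. By GC content the order was not monotone, since the lowest, middle and highest groups of 1003 introns had medians of 0.779, 0.653 and 0.722 in CFAP20-KO and 0.756, 0.619 and 0.708 in WT. The middle group lay below the lowest one in 6 of 6 libraries, at 0.545, 0.722 and 0.691 against 0.727, 0.814 and 0.795 in CFAP20-KO, and at 0.50, 0.720 and 0.637 against 0.746, 0.753 and 0.770 in WT; this was seen in the values and not tested. The sign of the rank relation to GC over the whole range depended on the library, with a Spearman's rho of -0.160 in WT replicate 1 and 0.139 in WT replicate 2. Just inside the length limit, 9 introns of 990 to 999 bases had a median of 0.655 in CFAP20-KO and 0.679 in WT, and just outside it 5 internal introns of 1000 to 1009 bases had 0.285 in CFAP20-KO and 0.348 in WT.

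The 5′ splice site was compared with CAGGTAAGT and CAGGTGAGT on the strand of the gene, where the leading 3 letters are exonic, and the better count of matching letters was kept. All 9 letters matched in 44 short internal introns (1.46%), against 2.76% of internal introns of 1 to 5 kb and 4.14% of those of at least 5 kb. Intron 8 of CPSF7 was one of them. The 1846 introns with 7 to 9 matching letters minus the 1163 with at most 6 differed in median index by -0.0133, -0.00789 and -0.0143 in the CFAP20-KO libraries, against 0.0246, 0.0114 and 0.00213 in the WT libraries. The CFAP20-KO libraries all lay below the WT libraries, with a difference of means of -0.0246 (exact permutation p = 0.1, the smallest that 3 against 3 can give, adjusted 0.875), and -0.0379 and -0.0132 within runs A and C. By the share of pyrimidines in the 17 bases ahead of the 3′ splice site, the 1241 introns with the most minus the 1148 with the least differed by -0.0220 over 6 libraries (exact sign-flip permutation p = 0.0625, adjusted 0.116).

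The introns named here for the extremes of the range had 78 to 781 bases. Intron 14 of TERT, the catalytic subunit of telomerase, stood at 1, 0.978 and 1 in the CFAP20-KO libraries, against 1 in each WT library. The genotypes overlapped there, as they did in the other introns with the highest values. Intron 10 of TNNT1, a troponin gene, intron 7 of EIF3C, a translation initiation factor subunit, and intron 29 of PLEC, which encodes the cytoskeletal linker plectin, had CFAP20-KO means of 0.999, 0.999 and 0.994, against WT means of 0.999, 0.992 and 0.991. EIF3C has a near-identical copy, EIF3CL, so its value is uncertain. At the other end, introns of ABHD1, ACP4 and ADIRF were at 0 in all 7 libraries, and intron 20 of AP1G2, an adaptor subunit of vesicle coats, was at 0, 0.0392 and 0 in CFAP20-KO and at 0 in each WT library. Many introns were tied at 0 in every WT library, 53 of them also in every CFAP20-KO library, and these 4 were the first by name. They therefore do not stand for the introns at 0 as a set. All 4 are the last introns of their listed transcripts, and the GT and AG ends of the ABHD1, ACP4 and AP1G2 introns are visible in the sequences above. The shortest introns had low values. Intron 4 of SLC50A1, a sugar transporter gene, has 63 bases in the 3′ UTR and an index of 0.105, 0.412 and 0.194 in the CFAP20-KO libraries, against 0.0537, 0.294 and 0.206 in the WT libraries. Intron 3 of PPP2R5D, a regulatory subunit of protein phosphatase 2A, has 64 bases and an index of 0.0465, 0.306 and 0.255 in the CFAP20-KO libraries, against 0.0877, 0.182 and 0.145 in the WT libraries. Intron 2 of MRPS34, a mitochondrial ribosomal protein gene, has 69 bases and an index of 0.115, 0.278 and 0.185 in the CFAP20-KO libraries, against 0.111, 0.307 and 0.229 in the WT libraries. In all 3 the genotypes overlapped.

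The comparison of CFAP20-KO with WT asked whether loss of CFAP20 changed the index of single introns. Of the 3009 short internal introns, limma called 0 at an adjusted p of 0.05 (0 of all 6537 introns tested, 0%; smallest adjusted p = 0.833). At an unadjusted p under 0.05 there were 144 higher and 32 lower in CFAP20-KO among short internal introns, which is 4.79% and 1.06% of them, against 3.58% and 2.13% of all introns. The mean index was higher in CFAP20-KO for 1729 introns, lower for 1227 and equal for 53, with a median difference of 0.0119 (quartiles -0.0335 and 0.0657), against a median of 0 over all introns tested.

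The 3 CFAP20-KO values lay above the 3 WT values in 248 short internal introns (8.24%, against 5.92% of all introns tested) and below them in 93 (3.09%, against 5.14%). Together these made 341 (11.3%, against 11.1% of all introns tested), so the number of introns whose genotypes did not overlap was near the background. The split by direction was 248 to 93, against 387 to 336 over all introns tested. With each library centred on its median over all introns the split was 232 above and 139 below, against 401 and 447 of all introns. In the other classes the split ran the other way, with 82 above and 111 below among internal introns of 1 to 5 kb, 15 and 39 among those of at least 5 kb, and 42 and 93 among first introns. The median difference in the longest class was -0.0333, and -0.0753 and -0.0275 within runs A and C, against 0.0119 for short internal introns, and 0.00694 and 0.0320 within runs. As given above, the difference between the classes in their change did not pass the test. Without CFAP20-KO replicate 1 the split was 821 above and 150 below (all introns 1563 and 461), and without WT replicate 1 it was 322 and 309 (all introns 504 and 900), so the split depended on both replicate 1 libraries. Without WT replicate 2 it was 566 and 139 (all introns 937 and 487), and without any 1 of the other 3 libraries it was 286 to 370 above and 164 to 197 below. Over all introns the latter counts were 448 to 632 above and 508 to 603 below. Fewer libraries separate more often, in all introns too.

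Same-numbered CFAP20-KO and WT libraries deviated together (correlations 0.49, 0.234 and 0.189 for replicates 1 to 3), but only replicate 1 stood apart. CFAP20-KO replicate 3 with WT replicate 2 gave 0.218, and CFAP20-KO replicate 2 with WT replicate 3 gave 0.211. No label gives this pairing, and the replicate 2 libraries are of different runs. With the replicate number as a block limma still called 0 introns. With the block and centred libraries it called 12 short internal introns higher and 5 lower (17 and 17 of all introns), and with the run as a covariate and centred libraries 26 and 5 (36 and 24 of all introns). In the fits with the run, WT replicate 2 carries no weight, since its run holds no CFAP20-KO library.

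**Figure D3:**
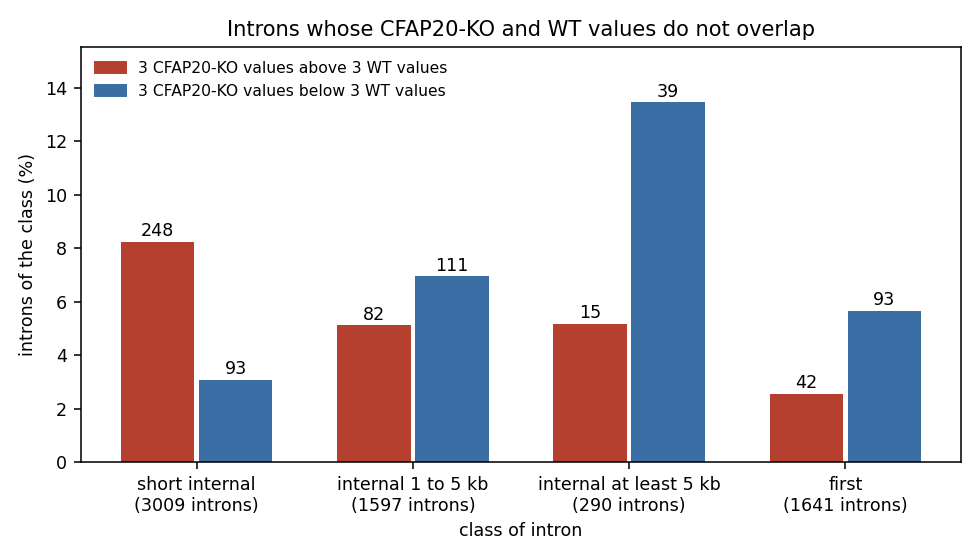
Share of the introns of each class (percent, vertical axis) whose 3 CFAP20-KO values all lie above (left bar) or all below (right bar) the 3 WT values, with the number of introns on each bar. Short internal introns have 248 above and 93 below, and each of the other 3 classes has more below than above.

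The 8 introns with the largest positive differences are described first, taken from the 248 by size with 1 intron a gene. These introns were chosen for their difference, which is therefore a description. Intron 6 of SSRP1, a subunit of the histone chaperone FACT, has 138 bases and an index of 0.80, 0.910 and 0.769 in the CFAP20-KO libraries, against 0.40, 0.579 and 0.316 in the WT libraries. Intron 2 of CTSL, the lysosomal protease cathepsin L, has 297 bases and an index of 0.605, 0.833 and 0.75 in the CFAP20-KO libraries, against 0.167, 0.55 and 0.316 in the WT libraries. The mean differences of the SSRP1 and CTSL introns were 0.395 (SE 0.0904) and 0.385 (SE 0.118), with a limma adjusted p of 0.833 for each. Intron 3 of CDC42SE1, an effector of the GTPase CDC42, had 0.487, 0.476 and 0.609 in the CFAP20-KO libraries, against 0.0814, 0.263 and 0.217 in the WT libraries. Intron 7 of RNF40, a ubiquitin ligase for histone H2B, has 97 bases and an index of 0.786, 0.852 and 0.80 in the CFAP20-KO libraries, against 0.368, 0.40 and 0.667 in the WT libraries. WT replicate 3 of RNF40, at 0.667, was nearer the CFAP20-KO values than the other WT libraries.

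Intron 6 of MYLK, myosin light chain kinase, had 0.581, 0.50 and 0.510 in the CFAP20-KO libraries, against 0.138, 0.369 and 0.143 in the WT libraries. Intron 9 of ZPR1, a zinc finger protein gene, had 0.514, 0.70 and 0.622 in the CFAP20-KO libraries, against 0.188, 0.467 and 0.270 in the WT libraries. Intron 3 of APEX1, the endonuclease of base excision repair, had 0.538, 0.787 and 0.738 in the CFAP20-KO libraries, against 0.30, 0.449 and 0.419 in the WT libraries. By the choice of introns, the lowest CFAP20-KO library was above the highest WT library in all 3 genes. In ZPR1 these values were close, at 0.514 and 0.467. Intron 17 of MYH9, the heavy chain of non-muscle myosin IIA, had 0.818, 0.866 and 0.707 in the CFAP20-KO libraries, against 0.385, 0.615 and 0.508 in the WT libraries. The differences of these 8 introns ranged from 0.294 to 0.395. They were positive within runs A and C, which follows from choosing introns whose genotypes do not overlap. With the replicate block and centred libraries limma called 4 of the 8, SSRP1 (adjusted p = 0.0107), CTSL (0.0224), CDC42SE1 (0.0371) and RNF40 (0.0371). With the run and centred libraries it called SSRP1 and CTSL (adjusted p = 0.0174 for each), CDC42SE1 (0.0424), MYLK (0.0263), ZPR1 (0.0365) and MYH9 (0.0466). The 8 were chosen for large differences in these same values, so calls among them follow in part from the choice. These fits called 17 and 31 of the 3009 short internal introns, and 34 and 60 of all 6537 introns.

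The 8 introns with the largest negative differences followed the same rule. Intron 9 of PXN, the focal adhesion protein paxillin, had 0.276, 0.70 and 0.690 in the CFAP20-KO libraries, against 0.767, 0.884 and 1 in the WT libraries. Intron 2 of BRK1, a subunit of the actin-regulating WAVE complex, had 0.312, 0.741 and 0.733 in the CFAP20-KO libraries, against 0.830, 0.917 and 0.887 in the WT libraries. In both, CFAP20-KO replicate 1 lay far below the other CFAP20-KO libraries, and without it the differences were -0.189 and -0.141, against -0.328 (SE 0.129) and -0.282 (SE 0.121) with it. Intron 24 of NCAPD2, a condensin subunit, has 81 bases and an index of 0.483, 0.732 and 0.682 in the CFAP20-KO libraries, against 0.891, 0.948 and 0.90 in the WT libraries. Its WT values lay within 0.891 and 0.948, and the difference was -0.281 (SE 0.0742, limma adjusted p = 0.833). Intron 2 of ATL3, an atlastin that shapes the endoplasmic reticulum, has 133 bases, of which only 23.3% are G or C, and an index of 0.489, 0.393 and 0.587 in the CFAP20-KO libraries, against 0.683, 0.821 and 0.745 in the WT libraries.

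Intron 5 of PHLDB1 has 88 bases and an index of 0.0800, 0.214 and 0.15 in the CFAP20-KO libraries, against 0.275, 0.571 and 0.346 in the WT libraries. Intron 8 of CPSF7, a subunit of pre-mRNA cleavage factor I, had 0.267, 0.629 and 0.581 in the CFAP20-KO libraries, against 0.75, 0.690 and 0.772 in the WT libraries. Intron 6 of ZNF557, a zinc finger gene, had 0.167, 0.367 and 0.419 in the CFAP20-KO libraries, against 0.633, 0.468 and 0.579 in the WT libraries. Intron 2 of CDK2, the cyclin-dependent kinase of DNA replication, has 114 bases and an index of 0.303, 0.565 and 0.427 in the CFAP20-KO libraries, against 0.698, 0.664 and 0.628 in the WT libraries. The genotypes came closest in ZNF557, where the highest CFAP20-KO library had 0.419 and the lowest WT library 0.468. Limma adjusted p ranged from 0.833 to 0.853 over these 8 introns. With the replicate block and centred libraries limma called PXN (adjusted p = 0.0121), BRK1 (0.0367) and NCAPD2 (0.0172), and with the run and centred libraries the same 3 (adjusted p = 0.0174, 0.0431 and 0.0271). These calls too follow in part from choosing introns by their difference.

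**Figure D4:**
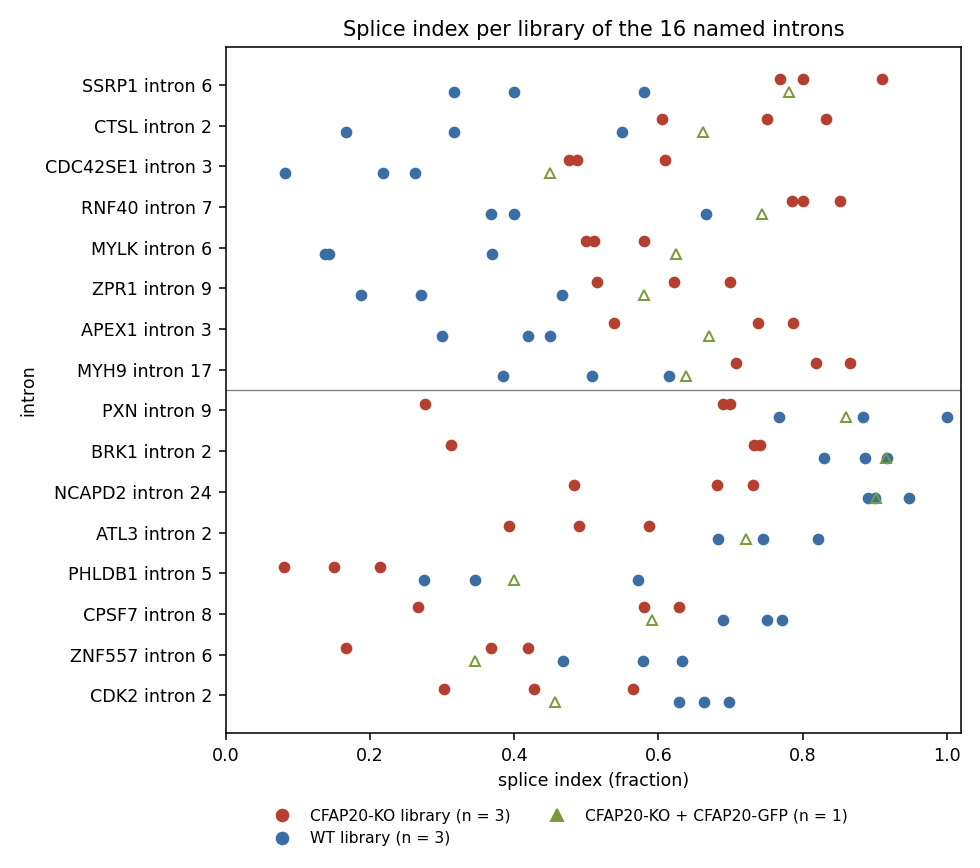
Splice index (fraction, horizontal axis) of the 16 introns with the largest differences, 8 positive above the line and 8 negative below it; for each intron the upper points are the 3 CFAP20-KO libraries, the lower points the 3 WT libraries and the open triangle the rescue. The introns were chosen so that the points of the 2 genotypes do not overlap.

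Several genes held many short internal introns, and in some of them most introns separated the genotypes in 1 direction. MYH9 had 17, of which 15 had all CFAP20-KO values above all WT values and 0 below. The median over these 17 introns averaged 0.970 ± 0.00717 in CFAP20-KO and 0.896 ± 0.0499 in WT (SD, n = 3 each). Intron 29 of MYH9 had an index of 0.980, 0.978 and 0.961 in CFAP20-KO, against 0.871, 0.874 and 0.872 in WT. HSP90AB1, which encodes the chaperone HSP90 beta, had 10, of which 7 lay above and 0 below, and intron 9 of it had 0.888, 0.963 and 0.943 in CFAP20-KO, against 0.858, 0.859 and 0.855 in WT. In ODC1, the rate-limiting enzyme of polyamine synthesis, 4 of 9 lay above and 0 below. HSP90AB1 and ODC1 were named after their values were seen, and introns of 1 gene share its transcripts and are not replicates.

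FLNA, the actin cross-linker filamin A, had the most short internal introns, 31, and none separated the genotypes. Its mean index over the 6 libraries spanned 0.504 at intron 3 and 0.967 at intron 31, and the median over introns averaged 0.838 in CFAP20-KO and 0.816 in WT. PLEC had 22, with 5 above and 0 below, and a median of 0.962 in CFAP20-KO and 0.919 in WT. The widest ranges within a gene were in SRRT, a factor in nuclear RNA processing, and EIF4G1, the scaffold of the cap-binding complex. In EIF4G1, introns 3 and 4 averaged 0.0425 and 0.0365 in CFAP20-KO, against 0.0598 and 0.0680 in WT, while intron 14 averaged 0.935 in CFAP20-KO and 0.920 in WT. In SRRT, intron 11 averaged 0.0614 in CFAP20-KO and 0.0258 in WT, and the intron of 187 bases numbered 7 averaged 0.978 in CFAP20-KO and 0.905 in WT. Another SRRT intron, of 119 bases, is also numbered 7 because the table numbers introns by transcript.

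**Figure D5:**
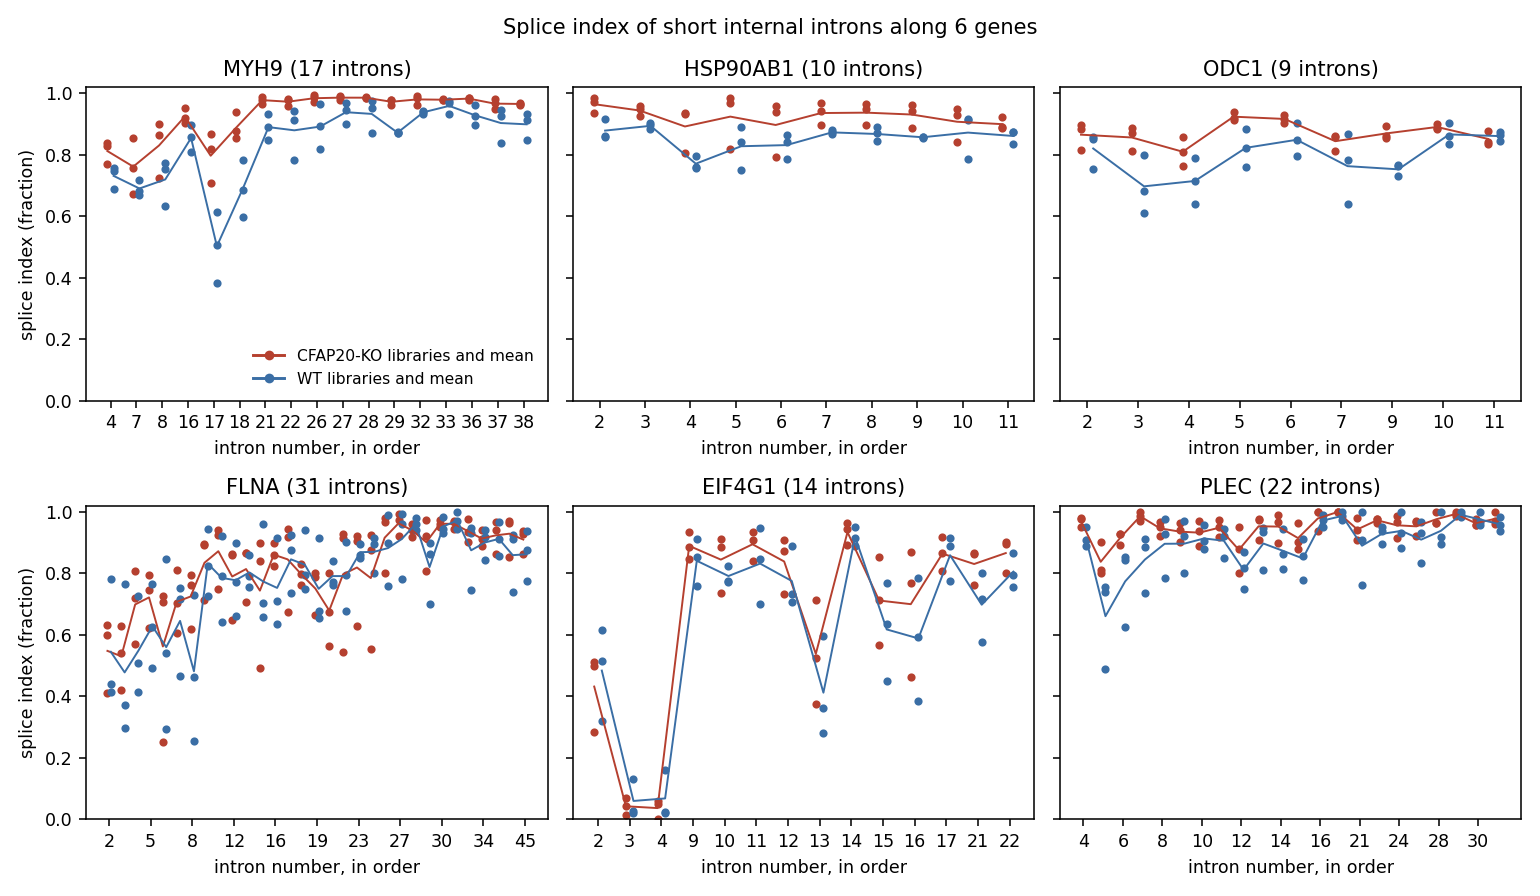
Splice index (fraction, vertical axis) of the short internal introns of 6 genes in transcript order (horizontal axis, spaced evenly); points are the 3 CFAP20-KO and 3 WT libraries and lines join their means. In MYH9 and HSP90AB1 the CFAP20-KO line lies above the WT line throughout, and in EIF4G1 introns 3 and 4 lie near 0 in both genotypes.

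Gene groups are described by counts, next to 8.24% above and 3.09% below over all short internal introns and 5.92% and 5.14% over all introns tested. Limma called 0 introns in every group. With the replicate block and centred libraries it called, among the introns named here, HSPA9 intron 8 (adjusted p = 0.0371), TLN1 intron 3 (0.0419) and, as given above, SSRP1 intron 6. The introns called were named for the size of their differences, so the calls follow in part from that choice. The 66 introns of 19 heat shock protein and chaperonin genes had 19 above and 0 below, and a median difference of 0.0642, with medians of 0.896 in CFAP20-KO and 0.831 in WT. Few genes supplied many of these, since HSP90AB1 had 7 introns above and HSPA5 had 3. Intron 8 of HSPA9, the mitochondrial HSP70, had 0.833, 0.899 and 0.872 in the CFAP20-KO libraries, against 0.474, 0.543 and 0.714 in the WT libraries, and intron 8 of CCT7, a chaperonin subunit, had 0.621, 0.629 and 0.645 in the CFAP20-KO libraries, against 0.393, 0.399 and 0.442 in the WT libraries. The 123 introns of 19 cytoskeletal genes had 27 above and 0 below, of which MYH9 and PLEC supplied 20, and a median difference of 0.0399. Intron 3 of TLN1, the integrin adaptor talin, had 0.878, 0.947 and 0.946 in the CFAP20-KO libraries, against 0.421, 0.745 and 0.812 in the WT libraries. The proteasome genes had 27 introns with 2 above and 0 below and a median difference of 0.0719, which was 0.0204 within run A and 0.10 within run C. Intron 14 of PSMD2, a subunit of the regulatory particle, had 0.733, 0.892 and 0.835 in the CFAP20-KO libraries, against 0.584, 0.597 and 0.614 in the WT libraries.

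Genes of RNA processing held more introns above than below, as did all short internal introns (248 and 93). The 60 introns of core spliceosome genes had 10 above and 1 below, with a median difference of 0.0340, and the 72 introns of hnRNP and SR protein genes 11 above and 3 below. Intron 7 of SF3B2, a subunit of the U2 snRNP, had 0.758, 0.962 and 0.927 in the CFAP20-KO libraries, against 0.526, 0.609 and 0.75 in the WT libraries, and intron 6 of SNRNP200, the helicase that unwinds U4 from U6, had 0.829, 0.941 and 0.928 in the CFAP20-KO libraries, against 0.741, 0.529 and 0.704 in the WT libraries. Intron 4 of EWSR1, an RNA-binding protein, was one of those below, and had 0.0455, 0.137 and 0.157 in the CFAP20-KO libraries, against 0.228, 0.269 and 0.25 in the WT libraries. The 45 introns of RNA polymerase II, elongation and Mediator genes had 5 above and 0 below. SSRP1 intron 6 was among them, and so was intron 25 of SUPT16H, the partner of SSRP1 in FACT, which had 0.848, 0.777 and 0.626 in the CFAP20-KO libraries, against 0.571, 0.512 and 0.476 in the WT libraries.

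In translation, the 56 introns of ribosomal protein genes had 7 above and 0 below, and the 89 of translation factor genes 7 above and 0 below, with median differences of 0.0306 and 0.0319. The share above among translation factor introns was near the 8.24% of all short internal introns, of which 3.09% lay below. Intron 5 of RPS6 had 0.522, 0.741 and 0.624 in the CFAP20-KO libraries, against 0.346, 0.340 and 0.482 in the WT libraries, and intron 6 of RPL7A had 0.375, 0.502 and 0.358 in the CFAP20-KO libraries, against 0.154, 0.122 and 0.309 in the WT libraries. Both genes, and HSP90AB1 above, have processed pseudogenes, so reads could be shared and their values are uncertain. The 50 introns of replication and licensing genes had 9 above and 1 below, with a median difference of 0.0303. MCM2 and MCM3 encode subunits of the replicative helicase. Intron 5 of MCM2 had 0.622, 0.778 and 0.836 in the CFAP20-KO libraries, against 0.556, 0.457 and 0.533 in the WT libraries, and intron 8 of MCM3 had 0.60, 0.697 and 0.579 in the CFAP20-KO libraries, against 0.378, 0.322 and 0.491 in the WT libraries. The 58 introns of matrix and integrin genes had 6 above and 2 below and a median difference of 0.00984. Intron 8 of FN1, fibronectin, had 0.759, 0.901 and 0.814 in the CFAP20-KO libraries, against 0.645, 0.684 and 0.594 in the WT libraries.

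The remaining groups held 22 introns or fewer. The 22 introns of glycolysis genes had 4 above and 0 below, and intron 6 of HK1, a hexokinase, had 0.889, 0.951 and 0.888 in the CFAP20-KO libraries, against 0.727, 0.692 and 0.757 in the WT libraries. The 12 introns of aminoacyl-tRNA synthetase genes had 2 above and 0 below, with median differences of opposite sign within runs A and C (-0.0410 and 0.0406). The 16 introns of snoRNA host genes had 4 above and 1 below. Intron 2 of GAS5, a non-coding snoRNA host, had 0.603, 0.636 and 0.677 in the CFAP20-KO libraries, against 0.691, 0.787 and 0.715 in the WT libraries. The 12 introns of immediate early and growth factor feedback genes had 1 above and 0 below. Of the cilium and Hedgehog list of 35 genes, 1 had a short internal intron, intron 9 of EVC, which had 0.172, 0.0488 and 0.0775 in the CFAP20-KO libraries, against 0.106, 0.411 and 0.0726 in the WT libraries, with the genotypes overlapping.

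Centring each library on its median, tried for the lists after seeing the data, lowered the count above in most lists and raised it in the ribosomal protein and proteasome lists. After centring, 7.71% of all short internal introns lay above and 4.62% below, against 6.13% and 6.84% of all introns tested. The heat shock and chaperonin introns then had 13 above and 1 below with a median difference of 0.0560, the cytoskeletal introns 13 and 1 with 0.0317, and the ribosomal protein introns 11 and 1 with 0.0225, the last against 7 and 0 before centring. For replication and licensing genes the split turned to 3 above and 4 below, and for translation factors it was 5 and 5. Core spliceosome introns had 5 above and 2 below, hnRNP and SR introns 9 and 3, RNA polymerase II, elongation and Mediator introns 5 and 3, and proteasome introns 4 and 0. Matrix and integrin introns had 4 and 3 with a median difference of 0.00167, glycolysis introns 3 and 0, snoRNA host introns 1 and 0, and the aminoacyl-tRNA synthetase and immediate early introns 0 and 0. The median difference of the immediate early list turned to -0.000439, against 0.00773 before centring, and among all short internal introns it was 0.00373.

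Introns whose genotypes did not overlap are described next by features that did not choose them, with no test. The 248 introns above had a median GC content of 44.4% and the 93 below 46.5%, against 52.2% of the introns whose genotypes overlapped. Their median WT index, which is part of the same contrast, was 0.751 for those above and 0.802 for those below, against 0.690 for the overlapping ones. Coding-region introns made up 93.5% of those above, 83.9% of those below and 86.1% of the overlapping ones. The number of reads behind an index, which sets how closely its values repeat, is not given, so its part in which introns separated was not tested.

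The rescue library was set beside WT replicate 2, with which it shares a run, and has no replicate, so nothing was tested. Its median over 2995 short internal introns with a value was 0.80, the highest of all 7 libraries, against 0.764 in WT replicate 2. The index was higher in the rescue than in WT replicate 2 for 1854 introns (61.9%), with a median difference of 0.0191. Of 339 introns that separated CFAP20-KO from WT and had a rescue value, the rescue was nearer to the CFAP20-KO mean in 195 (57.5%). This was 181 of the 247 above and 14 of the 92 below, so the rescue lay on the high side in both sets. Examples are SSRP1 intron 6, at 0.781 in the rescue, and NCAPD2 intron 24, at 0.901. The run of the rescue holds no CFAP20-KO library, so the effects of the run and of CFAP20-GFP cannot be told apart.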

How the data were processed

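The 3 CFAP20-KO, 1 rescue and 3 WT BrU-seq libraries were grouped by their labels. The deposited splice index is a fraction from 0 to 1 per intron; the formula the authors applied and the reads behind it are not stated, so depth is unknown and no counting interval was possible. The deposited differences between columns are scores that equal the differences of the authors' columns within 3.8e-08 and were not used further. The deposited coverage signal in windows served for the check of direction and the smallest step. Reads were handled, per the submitters' processing notes, with STAR 2.7.7a, SAMtools 1.11, HOMER 4.8.2, Trim Galore 0.6.5, R 4.0.5 and FastQC 0.11.9, with the hg38 build. The table held 18446 empty rows, which were dropped.

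All 6537 introns with 6 values were fitted with limma 3.58.1 in R 4.3.3 (moderated with trend and robust settings), with Benjamini-Hochberg adjustment and a threshold of 0.05. The limma steps were tested on simulated data. Values per library were compared with exact two-sided permutation tests. Same-numbered CFAP20-KO and WT libraries deviated together (correlations 0.490, 0.234 and 0.189, all over 0.1), so the number was tried as a block. No label gives this pairing. The block joins CFAP20-KO replicate 2 with WT replicate 2, which are of different runs. The deposited differences instead set CFAP20-KO replicates 2 and 3 against WT replicate 3. Deviations within a group sum to 0, so these correlations are not independent of each other. Numbers 2 and 3 were not set apart from each other, since CFAP20-KO replicate 3 with WT replicate 2 gave 0.218 and CFAP20-KO replicate 2 with WT replicate 3 gave 0.211. Intron ends, regions and letters came from hg38 and GENCODE 44. The text names, with 1 intron a gene, the 8 largest differences in each direction among introns whose genotypes did not overlap, the highest, lowest and shortest introns, the genes with the most introns or the widest range, and up to 2 introns of each gene list. Ties for the lowest index were broken by name. The members and lists were chosen with earlier results of these data known.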

Additional observations from a re-analysis of the deposited data

Results flagged for a closer look

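Differences between CFAP20-KO and WT had opposite signs in the 2 runs that hold both genotypes in 3 comparisons among short internal introns, and the difference between the runs was not tested. For introns inside an annotated exon minus the others, CFAP20-KO minus WT was -0.0153 in run A and 0.0220 in run C. For coding-region introns minus those of other regions it was 0.0174 in run A and -0.0205 in run C. For the median rho of index with number along genes it was 0.0571 in run A and -0.00260 in run C. Run A holds 1 library of each genotype.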

How the results depend on the processing

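Of 312 alternatives tried for the main results, 228 kept direction and side of the threshold and 35 turned; for 52 named introns, 771 alternatives gave 19 turned and 18 newly called values. The cause was not tested for any of them. With 1 intron per gene, short minus 1 to 5 kb was -0.0155, last minus other introns in CFAP20-KO minus WT -0.0135, the difference by length 0.0688, that by 5′ match -0.00392, and that by lying inside an annotated exon -0.101 (the last and the length difference with exact permutation p = 0.031). As a mean over introns, short minus 1 to 5 kb was -0.00948 and short minus longer introns of the same gene 0.0233 (exact permutation p = 0.0625). Without introns at 0 or 1, short minus at least 5 kb was 0.00215. With a limit of 500 bases, the difference by length was 0.0164 and its CFAP20-KO minus WT value 0.00786, the 5′ match gave -0.00375, and the order along genes in CFAP20-KO minus WT 0.0180. Within runs only, CFAP20-KO minus WT was -0.00154 for the coding region and 0.0273 for the order along genes. Limma called 17 short internal introns (34 of all) with the replicate block and centred libraries, and 31 (60 of all) with the run and centred libraries; the replicate block alone left 0 calls and changed no other call. With CFAP20-KO replicates 2 and 3 averaged, 302 introns (10%) lay above and 160 (5.32%) below, against 7.25% and 8.18% of all introns tested.

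Among named introns, CFAP20-KO minus WT turned for TNNT1 intron 10 (0.000933 with the run, 0.000259 with averaged replicates), MRPS34 intron 2 (0.00331 with the run) and AP1G2 intron 20 (-0.00465 with the run and centring). For EIF3C intron 7 it was -0.000960 with centring, with or without the block, and -0.00786 with the run and centring. For PLEC intron 29 it was -0.00541 with centring, with or without the block, and -0.0121 with the run and centring.

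Leaving out each library in turn, CFAP20-KO minus WT ranged from -0.0160 to 0.0683 for the median index, -6.20 to 2.46 percentage points for the share under 0.5, 0.0148 to 0.0485 for short minus 1 to 5 kb, 0.0324 to 0.0902 for short minus at least 5 kb, 0.0111 to 0.0623 for short minus first, -0.0158 to 0.0431 for last introns, -0.0244 to 0.0139 for length, -0.0694 to 0.0475 for GC content, -0.0272 to 0.000143 for pyrimidines, -0.0418 to 0.00118 for second introns, -0.00545 to 0.0488 for the coding region and -0.0607 to 0.0273 along genes. Over both genotypes the ranges were -0.00375 to 0.00972 for short minus 1 to 5 kb, -0.0150 to 0.00811 for short minus at least 5 kb, 0.370 to 0.395 for short minus first, 0.0214 to 0.0288 within the same gene, -0.172 to -0.148 for last introns, -0.00872 to 0.00659 for length, -0.00440 to 0.00339 for the 5′ match, -0.00195 to 0.00672 inside an exon, -0.195 to -0.175 for second introns, 0.398 to 0.420 for the coding region and 0.189 to 0.224 along genes. With 5 libraries the sign-flip test cannot go below 0.0625. Introns above numbered 286 to 821 and below 139 to 309. Over all introns tested, those above numbered 448 to 1563 and those below 461 to 900. The differences ranged from -0.0752 to 0.0229 for MRPS34 intron 2, -0.000701 to 0.00724 for PLEC intron 29, -0.0349 to 0.118 for SLC50A1 intron 4 and -0.00114 to 0.00111 for TNNT1 intron 10. The unknown depth limits every value.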
